A study of Homo sapiens with 4 samples.

Results

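The RNA of the mock-transfected ctrl clone of A2780s cells was read in 1 of the 2 channels of each of 4 Agilent arrays, so that 4 of the 8 channels of the series describe these cells. They were chosen by the sample labels alone, which name the ctrl channel as Cy3 (green) on 2 arrays and Cy5 (red) on the other two. The study compared ctrl with 2 clones in which a short hairpin RNA lowers GALNT3, and no value of a knockdown clone and no ratio was used for the levels below. A2780s is an ovarian adenocarcinoma line, and the ctrl cells were mock-transfected using pSilencer 4.1 puro, were selected in puromycin and were isolated as a stable clone of adherent cells. The labels write the ctrl cell line as A2780s on some arrays and as A27803 on others, and all 4 were taken as the same clone. No source used here says whether the 4 hybridisations came from separate cultures or separate RNA extracts, so n = 4 below counts hybridisations of 1 clone and the SD is a technical spread. Replicate 1 of each dye shared its array with knockdown clone 1 and replicate 2 with knockdown clone 2.

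Epithelial ovarian cancer (EOC) takes in several histological types, and the serous type resembles the Müllerian epithelium of the fallopian tube, which is marked by PAX8, WT1 and the mucin MUC16 (CA125). Epithelial cells hold together through E-cadherin (CDH1), desmosomes and tight junctions, whereas mesenchymal cells carry vimentin and fibrillar collagens and may express the transcription factors SNAI2, TWIST1 and ZEB1. The GALNT family, to which GALNT3 belongs, attaches the first N-acetylgalactosamine to serine or threonine of mucins and other proteins, and other enzymes extend that sugar into core structures capped by sialic acid.

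Each level is the median signal of a spot less its median local background, given either as such (arbitrary units of fluorescence) or as the percentile of the probe among the 40919 probes with a value on all 4 arrays. A percentile ranks probe brightness and not molecules of mRNA, because probes differ in how well they bind, and in RNA from many cells a high level in few cells and a low level in many cannot be told apart. The median level was 763 and 716 on the Cy3 arrays and 461.5 and 519 on the Cy5 arrays, and no spot was saturated. Between any 2 of the 4 hybridisations Spearman's rho across probes lay between 0.988 and 0.995, which is a description of probes and not of independent samples. The software's flag for a spot well above background was set for 95.9% to 97.6% of spots, and it was also set for 96.6% to 98.7% of probes of 6 gene families known from nose, tongue, hair, skin, lens and retina. That flag therefore separated few genes, and a second reference was used: on each array, the 95th percentile of those foreign-family probes, which fell at percentiles 79.7 and 77.2 of the Cy3 arrays and 82.6 and 82.3 of the Cy5 arrays. A gene was represented by its brightest probe, and of 17221 named genes 4653 (27.0%) lay above the foreign-family level on 4 of 4 hybridisations and 11089 (64.4%) on 0 of 4. The count of each list below is to be read beside that 27.0%. A gene below this level is not shown to be silent, since the level lies at the 95th percentile of the foreign-family probes and above most of them. Nor is a gene above it shown to be expressed. Of the 232 foreign-family probes, 7 lay above the level on 4 of 4 hybridisations, and the brightest had a mean percentile of 91.5. Many genes called above the level below lie within that range.

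**Figure D1:**
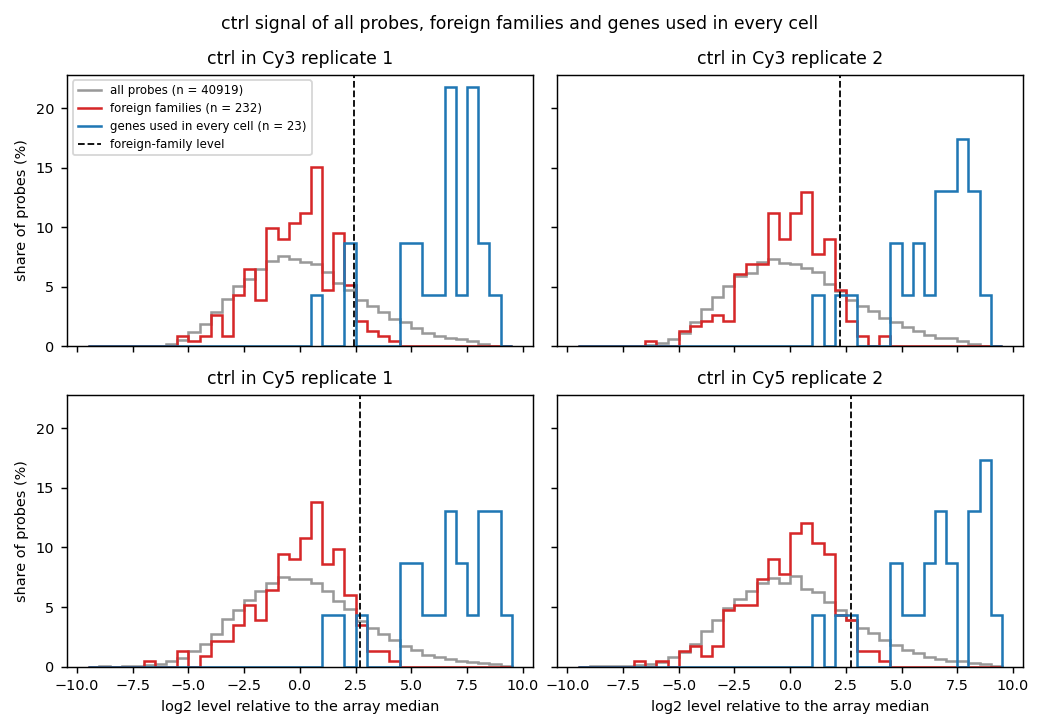
Distribution of ctrl levels on each of the 4 hybridisations, as log2 of the level relative to the array median (x axis) against the share of probes in percent (y axis). Grey is all 40919 probes, red the 232 foreign-family probes, blue the brightest probes of 23 genes used in every cell, and the dashed line the foreign-family level, which lay between 2.25 and 2.71 on this log2 scale; 20 of the 23 blue genes lay to its right on all 4 arrays.

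The reference genes set the scale at its upper end. Of 23 genes used in every cell, 20 lay above the foreign-family level on all 4 hybridisations, with a median percentile of 98.5. The exceptions were ALDOA at a mean percentile of 81.2, above on 2 of 4, TBP at 76.7, above on 1 of 4, and POLR2A at 64.9, above on 0 of 4. So a gene that these cells must use can still fall below the level. The 10 brightest named genes of the array were EEF1A1, which brings aminoacyl-tRNA to the ribosome, the ribosomal proteins RPS2, RPS27, RPS28, RPL35, RPS6, RPS4X, RPLP0 and RPL13, and CHCHD2, a mitochondrial protein. Ribosomal protein genes have many near-identical copies in the genome, and their probes may read several of them.

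GALNT3, the gene lowered in the knockdown clones, gave levels of 43.5 and 50.5 in Cy3 and 27.5 and 26.5 in Cy5 in the ctrl cells. These are percentiles 3.61 and 5.65 in Cy3 and 4.71 and 3.84 in Cy5, a mean of 4.45 ± 0.93 (SD, n = 4). All 4 values lay near the bottom of the array and far below the foreign-family level, yet each carried the software's flag. They also exceeded the 95th percentile of the 153 negative control spots, which was 20.2 and 25 in Cy3 and 10 and 14 in Cy5. Over the arrays, 98.5% to 99.4% of all probes exceeded that control level too, so it separated few probes. The level rests on the 1 probe that was named as GALNT3. By Western blot the paper reports strong GALNT3 protein in A2780s cells. It also used semi-quantitative RT-PCR and Western blot to choose the knockdown clones against the control. Those assays are not read by this probe, and why its level was low was not tested.

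Of the 19 measured members of the GALNT family, 3 lay above the foreign-family level on all 4 hybridisations, 1 on some and 15 on none, and 11 lay below the array median on all 4. The share above on all 4 was 15.8%, against 27.0% over all named genes, and the median percentile was 43.7, against 65.1. GALNT11 stood at percentiles 91.1, 91.5, 90.2 and 89.6 in the order Cy3 replicates 1 and 2 and Cy5 replicates 1 and 2, an order kept below. The other GALNT11 probe averaged 67.3, below the level on every array. GALNT16 stood at 88.7, 88.7, 89.8 and 89.98, and GALNT1, a widely expressed member, at 82.9, 83.5, 84.2 and 85.4. For both genes the spread over hybridisations was about 1 percentile point (SD 0.68 and 1.1). GALNT7, which adds further residues to already glycosylated peptides, gave 79.5, 81.6, 84.4 and 87.1 and crossed the level on 3 of 4. GALNT2 averaged 73.6 ± 2.7, GALNT14 42.01 ± 0.62 and GALNT6, the closest relative of GALNT3, 34.8 ± 2.9 (SD, n = 4 for each), and none of these was above the level on any array.

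The enzymes that extend the first sugar were mostly below the level. In the list of O-glycan core synthesis, 2 of 14 measured genes were above it on 4 of 4 and 12 on 0 of 4. C1GALT1C1 (Cosmc), the chaperone needed to make core 1, stood at 90.4, 91.0, 91.7 and 91.3, whereas C1GALT1, the core 1 enzyme itself, stood at 57.3, 58.1, 63.1 and 64.1. GCNT1 and GCNT3, which make branched cores, averaged 6.44 ± 2.4 and 6.91 ± 0.99. Both branching enzymes lay in the same low range as GALNT3 on every hybridisation. Of 19 sialyltransferases, 0 were above the level on all 4 arrays and 2 on some, ST3GAL2 at a mean of 79.3 and ST6GAL1 at 76.8. Their other probes averaged 52.7 and 19.7, below the level on every array. ST6GALNAC1, which makes the sialyl-Tn antigen, gave 48.8, 32.6, 51.5 and 50.6, a spread of 8.9 (SD) that was wide for this data set, where the median SD over named genes was 1.43. Among the mucins 1 of 12 measured genes was above the level, CD164 at 89.7 ± 0.15, a sialomucin of many cell types whose other probe averaged 81.3. MUC1, a transmembrane mucin of epithelia, stood at 45.4, 45.7, 43.6 and 49.5, and MUC4 at 77.7, 77.6, 80.3 and 80.7. MUC1 was thus close to the array median, and MUC4 exceeded the level on 1 of 4 hybridisations. The other MUC4 probes averaged 79.1, 74.8 and 13.5.

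The promoters of 4 genes are shown because the E-box CAGGTG, read as CACCTG on the other strand, is the sequence bound by factors of the SNAI and ZEB type, whose levels are given with the mesenchymal genes. GALNT3, with a low level, and MUC1, with a level near the array median, are examples from O-glycosylation. RAB25 is an example of an epithelial gene with a low level and VIM of a mesenchymal gene with a high level. The 4 genes were picked and do not represent their lists. Each sequence runs in the direction of transcription over 300 bases, from 250 before the start to 50 after it, from the RefSeq annotation of GRCh38.p14, and capitals mark the E-box on either strand. GALNT3 lies at chr2:165794198-165794497 on the minus strand, MUC1 at chr1:155192866-155193165 on the minus strand, RAB25 at chr1:156060910-156061209 on the plus strand and VIM at chr10:17227991-17228290 on the plus strand.
GALNT3: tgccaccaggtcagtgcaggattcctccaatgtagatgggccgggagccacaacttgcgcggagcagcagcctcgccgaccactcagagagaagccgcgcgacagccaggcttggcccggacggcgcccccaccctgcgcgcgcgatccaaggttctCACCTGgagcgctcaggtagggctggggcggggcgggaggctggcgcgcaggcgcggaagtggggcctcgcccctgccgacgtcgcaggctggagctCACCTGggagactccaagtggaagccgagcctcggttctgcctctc
MUC1: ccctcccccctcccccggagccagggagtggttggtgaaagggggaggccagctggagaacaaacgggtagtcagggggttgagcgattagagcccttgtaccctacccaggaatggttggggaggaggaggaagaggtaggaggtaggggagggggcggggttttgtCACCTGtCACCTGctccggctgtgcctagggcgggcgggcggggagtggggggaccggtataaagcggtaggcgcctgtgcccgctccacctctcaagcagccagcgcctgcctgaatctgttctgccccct
RAB25: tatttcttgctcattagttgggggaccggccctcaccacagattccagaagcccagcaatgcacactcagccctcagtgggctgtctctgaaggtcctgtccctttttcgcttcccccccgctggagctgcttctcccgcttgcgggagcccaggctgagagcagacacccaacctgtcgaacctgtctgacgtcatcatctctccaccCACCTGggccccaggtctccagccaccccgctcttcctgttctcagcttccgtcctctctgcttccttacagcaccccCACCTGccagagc
VIM: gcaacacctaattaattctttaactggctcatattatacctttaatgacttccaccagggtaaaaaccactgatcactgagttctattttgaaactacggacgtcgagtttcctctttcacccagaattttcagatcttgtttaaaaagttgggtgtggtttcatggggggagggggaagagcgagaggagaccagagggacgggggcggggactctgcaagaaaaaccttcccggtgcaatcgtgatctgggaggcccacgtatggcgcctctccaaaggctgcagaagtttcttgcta
The GALNT3, MUC1 and RAB25 windows each held 2 matches and the VIM window 0. No other motif was searched. Of 27305 genes with a promoter sequence, 20.6% had at least 1 match. Only 9 of the 28 genes of the epithelial list had a promoter sequence, CDH1 and EPCAM not among them, and 5 of these 9 had a match. So did 2 of 14 promoters of the mesenchymal list, 5 of 15 of the GALNT family and 1 of 11 of the mucins, which was MUC1. A match describes letters in the window and does not show that a factor binds there.

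**Figure D2:**
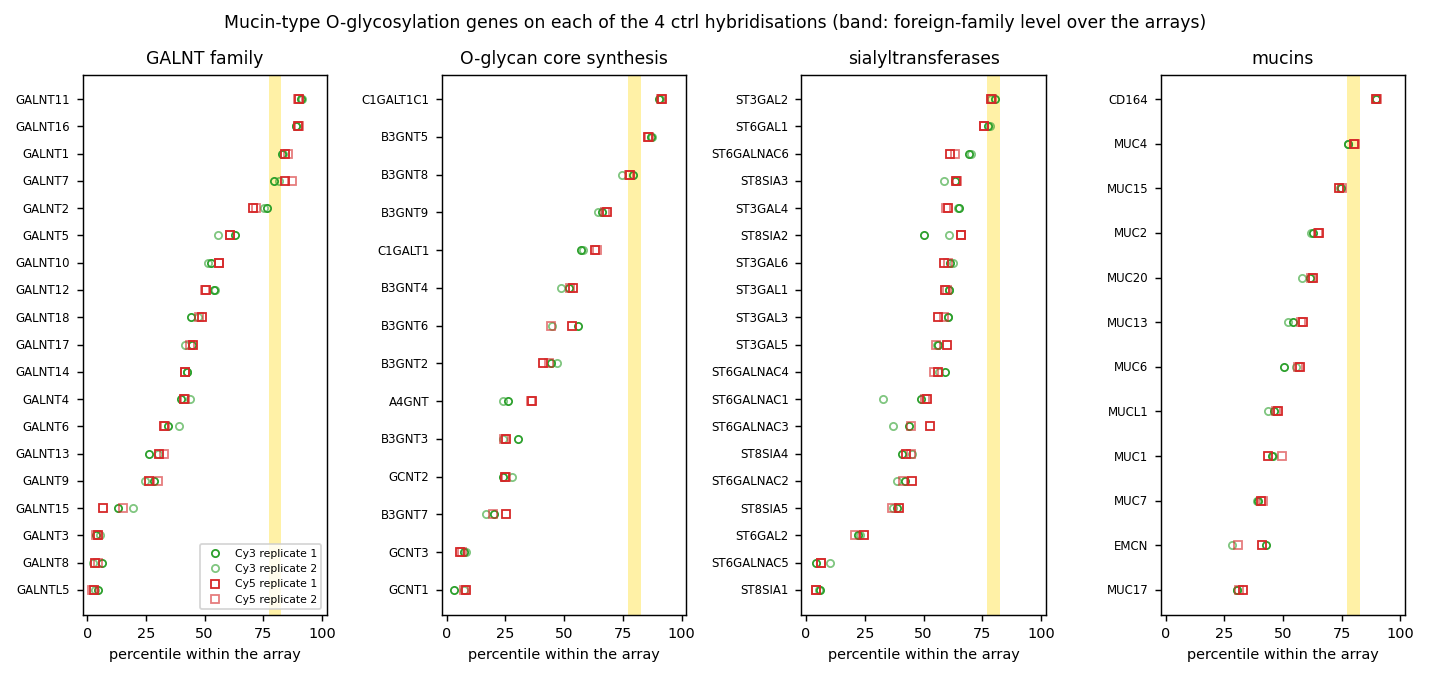
Percentile within the array (x axis) of the brightest probe of each gene of 4 mucin-type O-glycosylation lists on the 4 ctrl hybridisations: green circles are Cy3, red squares Cy5, darker marks replicate 1 and paler marks replicate 2. The yellow band spans the foreign-family level, 77.2 to 82.6; GALNT11, GALNT16, GALNT1, C1GALT1C1, B3GNT5 and CD164 lie to its right on every array, and GALNT3, GCNT1 and GCNT3 lie at the left edge.

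The other glycosylation lists were read in the same way. Over all glycosylation lists 49 of 204 measured genes (24.0%) were above the level on 4 of 4, beside the 27.0% of all named genes, with a median percentile of 60.5. N-glycan synthesis and the oligosaccharyltransferase held 15 of 27, with a median percentile of 86.7. DAD1, a subunit of the oligosaccharyltransferase, stood at 96.7, 97.0, 96.9 and 97.1, and ALG5, ALG8 and DDOST averaged 96.3, 96.0 and 96.2. MGAT1 and MGAT2, which start complex-type branches, averaged 86.7 ± 0.50 and 92.1 ± 0.35. MGAT5, which adds the branch often raised in tumour cells, gave 7.96, 8.22, 10.1 and 13.5. MGAT3, which adds the bisecting residue, averaged 84.2 on 1 probe and 10.3 on the other, so its position depends on the probe.

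Sugar-nucleotide and O-GlcNAc genes were above the level in 12 of 28 cases. OGA and OGT, which remove and add O-GlcNAc, averaged 96.1 ± 0.21 and 89.1 ± 1.4, with the second OGT probe at 72.5. GNE and NANS, which make sialic acid, averaged 89.8 ± 0.093 and 89.6 ± 0.54, and SLC35A1, the transporter that brings CMP-sialic acid to the Golgi, averaged 87.3 ± 0.46. SLC35A1 has a second probe that was below the level on every array. CMAS, which activates sialic acid to the CMP form, gave 82.3, 82.4, 80.6 and 80.9, above on 2 of 4. Heparan and chondroitin sulfate synthesis had 10 of 36 genes above (27.8%), near the 27.0% of all named genes. Among them were CHSY1 at 94.0 ± 0.24, EXT2 at 89.3 ± 0.36 and HS6ST1 at 85.8 ± 2.1. HS6ST1's other probe averaged 30.8, and EXT1, the partner of EXT2 in heparan sulfate elongation, averaged 56.2 ± 3.5. Of the galactosyltransferase list 4 of 18 were above, B4GALT1, B3GALT6, B4GALT3 and B4GALT5, at means from 87.5 to 92.2, with the second B4GALT1 probe at 61.6. Fucosyltransferases had 1 of 10, POFUT2 at 88.4, whose other probes averaged 35.6 and 17.8. Galectins and siglecs had 1 of 21, LGALS1 (galectin-1), at 99.3, 99.3, 99.3 and 99.2, and LGALS3 (galectin-3) averaged 81.3 ± 0.78 and was above on 2 of 4.

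Lineage markers gave 28 of 249 measured genes (11.2%) above the foreign-family level, with a median percentile of 42.2, beside 27.0% and 65.1 over all named genes. None of the 23 measured Müllerian and serous markers was above it on all 4 hybridisations, although the label of the line is ovarian adenocarcinoma. WFDC2 (HE4), a secreted serous marker, came nearest, at 82.0, 81.5, 81.8 and 82.2, above on 2 of 4, with its other probe at a mean of 59.1. PAX8, a transcription factor of Müllerian epithelium, gave 68.4, 68.7, 78.2 and 76.3, with its Cy5 values above its Cy3 values and all 4 below the level. The other PAX8 probe averaged 8.4. FOLR1 averaged 68.5, above on 0 of 4. WT1 averaged 32.8 ± 2.3, MUC16 30.05 ± 1.9 and MSLN (mesothelin) 18.7 ± 2.7, below the array median on each array. For the steroid receptors ESR1 and PGR the means were 50.7 ± 1.6 and 33.6 ± 7.2.

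The epithelial list had 1 of 27 measured genes above the level (3.7%) and 25 on 0 of 4, with a median percentile of 40.9. Over all named genes these were 27.0% and 65.1. The gene above was KRT18, at 91.1, 91.0, 91.9 and 91.5, and its usual partner KRT8 gave 81.6, 81.3, 82.8 and 80.4, above on 3 of 4. EPCAM, an epithelial surface protein, stood at 51.1, 52.8, 50.8 and 51.6, and CDH1 at 21.6, 19.5, 18.5 and 21.97. KRT8's other probe averaged 15.7, and the keratins KRT19 and KRT7 averaged 73.7 ± 2.3 and 16.6 ± 2.1, above on 0 of 4. KRT18 was thus alone in this list in lying above the level on every array. GRHL2, a transcription factor that maintains epithelial genes, averaged 10.6 ± 2.0, and RAB25, a vesicle-traffic GTPase of epithelia, gave 4.59, 3.95, 3.41 and 3.55. RAB25 was flagged well above background on 3 of 4.

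The mesenchymal list had 12 of 25 measured genes above the level on all 4 hybridisations and 13 on none. The share above on all 4 was 48%, beside 27.0% of all named genes, and the median percentile was 70.7, beside 65.1. VIM, the intermediate filament of mesenchymal cells, gave levels of 217160 and 210924 in Cy3 and 211065 and 243382 in Cy5, a percentile of 99.9 on every array. SNAI2 stood at 96.2, 96.6, 95.8 and 96.0, and TWIST1 at 94.7, 94.5, 95.2 and 94.98 on 1 probe, with the other probe at a mean of 40.8. The matrix genes COL3A1, DCN (decorin) and SPARC averaged 97.1 ± 0.15, 96.5 ± 0.20 and 95.3 ± 0.22, and 1 of the 3 COL3A1 probes was below the level on every array. ACTA2 and TAGLN, of the contractile apparatus, averaged 95.8 ± 0.13 and 91.9 ± 0.31. Not every mesenchymal gene was bright. CDH2 (N-cadherin) gave 73.3, 74.1, 70.0 and 65.5, ZEB1 averaged 38.0 ± 2.8, SNAI1 34.9, FN1 (fibronectin) 27.9 ± 1.7 over hybridisations of its brightest of 3 probes, and COL1A2 44.9. Thus SNAI2 and TWIST1 were above the level while ZEB1, ZEB2 and SNAI1 were not.

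Markers of other cell types were examined in the same way. Of the ovarian somatic and steroidogenic list, 2 of 20 were above: FOXL2, a transcription factor of granulosa cells, at 85.7, 85.9, 86.4 and 86.7, and HSD17B1, which makes estradiol, at 83.8, 83.8, 84.1 and 83.8 on 1 probe and a mean of 49.9 on the other. GATA4, another granulosa factor, gave levels of 32, 26, 9 and 12 and was flagged well above background on 0 of 4. CYP19A1 (aromatase) averaged 41.0 ± 1.5 and NR5A1 (SF-1) 73.0 ± 2.9. Most of that list, 17 of 20, was therefore below the level on every array.

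Pluripotency and germ-cell markers had 4 of 20 above the level (20%), a lower share than the 27.0% of all named genes. PRAME, a cancer-testis antigen, averaged 94.7 ± 0.54, with its other probe at 73.5, and SALL4 averaged 92.5 ± 0.20. DNMT3B, a DNA methyltransferase of early embryos, averaged 89.7 ± 0.34, and SOX2 gave 83.5, 86.9, 87.0 and 87.5. The core factors POU5F1 and NANOG averaged 40.0 ± 4.2 and 55.8 ± 1.7 and the RNA-binding proteins LIN28A and LIN28B 50.4 ± 2.2 and 65.1 ± 1.1. None of those 4 was above on any array.

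The neural list had 5 of 27 above (18.5%), also a lower share than the 27.0% of all named genes. NEFH, the heavy neurofilament, gave 98.7, 98.6, 98.3 and 98.1 and UCHL1, a ubiquitin hydrolase abundant in neurons, gave 98.2, 98.3, 98.0 and 98.0. TUBB3, NES (nestin) and INA, which are cytoskeletal proteins of neurons or their precursors, averaged 92.4 ± 0.38, 89.4 ± 0.42 and 82.8 ± 0.72, and the second TUBB3 probe averaged 72.1. The secretory-vesicle markers CHGA, at 57.0 ± 1.2, and SYP, at 16.4 ± 2.2, were below the level on every array. Thus the neural genes above the level were cytoskeletal ones and UCHL1. In muscle, 2 of 20 genes were above, TNNT1 (slow troponin T) at 97.9 ± 0.080 and ACTC1 (cardiac actin) at 88.1 ± 0.75, with its other probe at 70.0. Blood and immune markers gave 1 of 24, CD4 at 80.6, 80.7, 84.8 and 85.8, close to the level on each array. Among regional transcription factors 1 of 32 was above, TBX1 at 83.6 ± 0.78, with its other probe at 12.0. GATA6 averaged 20.4 ± 0.84. Endothelial (14 genes) and liver (17 genes) markers had 0 above the level on any array, with highest means of 72.5 and 72.1.

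**Figure D3:**
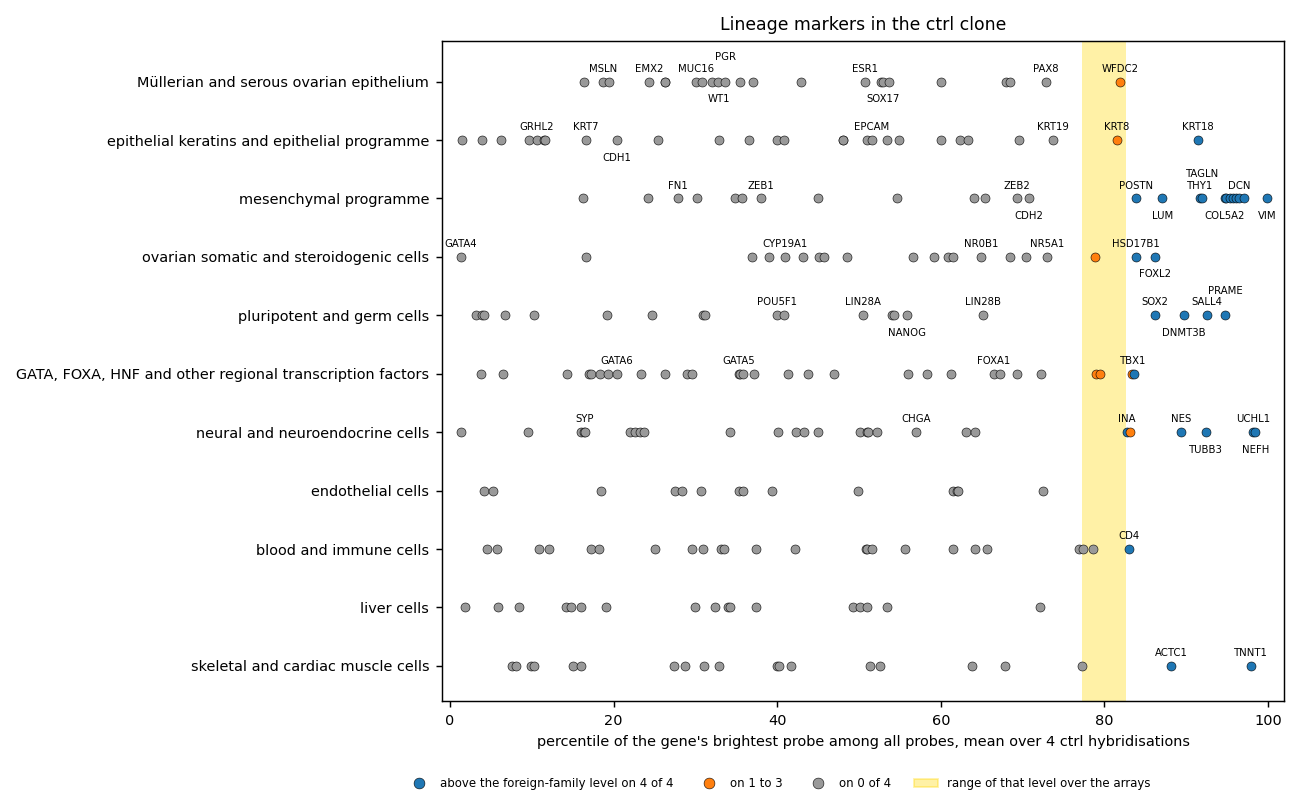
Mean percentile over the 4 ctrl hybridisations (x axis) of the brightest probe of measured genes, for 11 lists of lineage markers (y axis). Blue points were above the foreign-family level on 4 of 4 arrays, orange on 1 to 3 and grey on 0, the yellow band is the range of that level, and the mesenchymal list carries 12 blue points against 1 in the epithelial and 0 in the Müllerian list.

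Adhesion genes were above the level in 30 of 233 cases (12.9%), with a median percentile of 52.7, both below the 27.0% and 65.1 of all named genes. Of 36 cadherins 2 were above, CDH10, a neuronal type II cadherin, at 93.9, 93.6, 94.4 and 94.2, and CLSTN1 (calsyntenin) at 83.7, 84.1, 84.9 and 84.4. CDH3 (P-cadherin) averaged 73.8 ± 2.3, CDH11 37.6 ± 2.6 and CDH6 32.9 ± 3.6. None of the classical cadherins E, N or P therefore reached the level on any array. Cadherins hold to the cytoskeleton through catenins. In the catenin list 5 of 12 were above, CTNNAL1, CTNNB1 (beta-catenin), VCL (vinculin), CTNNBIP1 and CTNNA1, at means from 91.8 to 97.6. CTNNB1 stood at 96.4, 96.5, 96.1 and 96.1, with its other probe at a mean of 72.1. JUP (plakoglobin), which serves desmosomes too, gave 78.6, 78.2, 77.1 and 76.8, above on 1 of 4.

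The desmosome list had 0 of 13 genes above the level, with a median percentile of 39.6. DSP (desmoplakin), the plaque protein, gave 49.5, 39.9, 54.0 and 48.3, and DSG2, a desmosomal cadherin, averaged 28.9 ± 2.1. The brightest genes of the list, EVPL and PPL, averaged 76.1 and 69.3, and PKP2 averaged 68.1 ± 4.4. In tight junctions, 2 of 31 genes were above, the adhesion receptor F11R (JAM-A) at 87.8 ± 0.81 and the scaffold TJP1 (ZO-1) at 86.4 ± 0.25, but their other probes averaged 28.8 and 71.7. The claudins named here were all below. CLDN3 averaged 67.9 ± 1.9, CLDN6 65.1 ± 3.0 and CLDN7 59.0 ± 5.1, and CLDN4 and CLDN1 averaged 16.4 ± 3.7 and 13.9 ± 1.5. OCLN (occludin) averaged 49.4 ± 1.9.

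Among adhesion proteins of the immunoglobulin type 2 of 32 were above. BCAM, a laminin receptor, averaged 96.8 ± 0.35 and NECTIN2 93.8 ± 0.80, and their other probes averaged 75.2 and 75.1. L1CAM averaged 23.7 ± 4.5, ICAM1 33.8 ± 2.1 and VCAM1 13.8 ± 1.2. Integrins bind cells to matrix as pairs of an alpha and a beta chain. ITGB1, the beta chain shared by most pairs, stood at 99.2, 99.3, 98.9 and 98.8, and all 3 of its probes were above the level on every array. It was the 1 of 9 beta chains above, and ITGB4, ITGB5 and ITGB6 averaged 50.5 ± 5.6, 75.6 ± 2.2 and 1.59 ± 0.75. Of 18 alpha chains 2 were above, ITGAV (alpha-v) at 95.2, 95.4, 95.9 and 95.7, with its second probe at a mean of 45.0, and ITGAE at 87.2 ± 1.2. ITGA5 and ITGA6, partners of ITGB1 for fibronectin and laminin, averaged 68.5 ± 0.69 and 66.1 ± 1.1. ITGA3 and ITGA2 averaged 12.9 ± 1.8 and 30.4 ± 2.7.

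Inside the cell, 4 of 20 focal adhesion genes were above, ACTN1, FERMT2 (kindlin-2), PXN (paxillin) and ILK, at means from 85.5 to 89.8, and 5 more were above on some arrays. Syndecans, glypicans and other matrix receptors had 8 of 20 above, a share that exceeded the 27.0% of all named genes. SDC1 (syndecan-1) stood at 94.6, 94.4, 94.3 and 92.9 on 1 probe and averaged 41.8 on the other. GPC3, a glypican of embryonic tissues, stood at 93.6, 93.5, 92.7 and 92.5, and SDC2 and GPC1 averaged 90.5 ± 0.37 and 90.3 ± 0.20. RPSA, which is a ribosomal protein as well as a laminin receptor, had a percentile of 99.9 on every array. CD44, the hyaluronan receptor, gave 25.2, 22.8, 25.1 and 22.7. HMMR, the other hyaluronan-binding gene named here, averaged 93.4 ± 0.098 and also acts in the mitotic spindle. Of 23 laminin and basement membrane genes 4 were above: LAMB2 at 96.8 ± 0.046, NID2 (nidogen-2) at 92.0 ± 0.66, LAMA1 at 86.4 ± 0.55 and LAMC1 at 84.6 ± 0.88. LAMA1 had 3 further probes, with means from 31.8 to 50.9, and LAMA5 averaged 46.7 ± 1.6. Leucine-rich and selectin-type adhesion proteins had 0 of 19 above on all 4 arrays, and FLRT3 came nearest, at 84.7, 84.5, 82.3 and 83.5, above on 3 of 4.

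**Figure D4:**
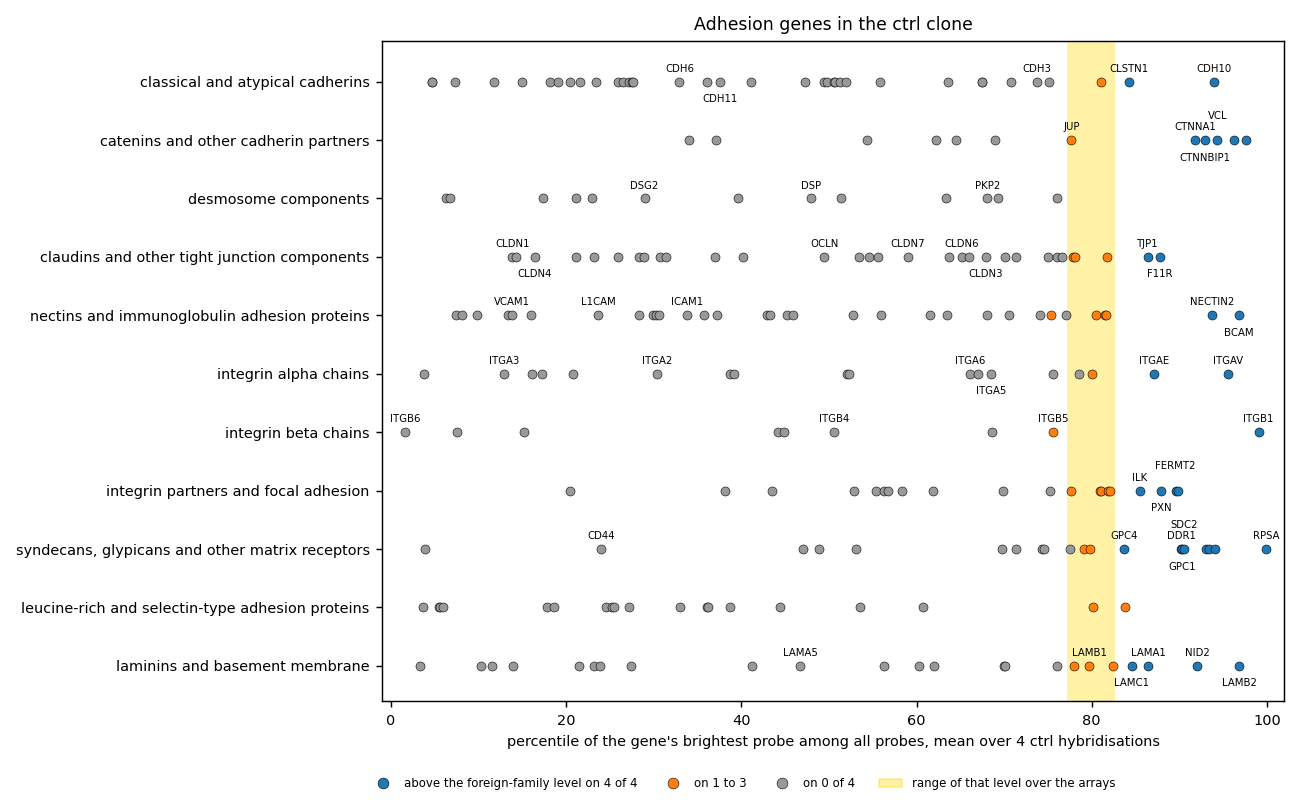
Mean percentile over the 4 ctrl hybridisations (x axis) of the brightest probe of each measured gene, for 11 lists of adhesion genes (y axis), with colours as for the lineage markers. ITGB1 at 99.04, ITGAV at 95.5, LAMB2 at 96.8 and 5 of the 12 genes of the catenin list lie right of the yellow band. No desmosome gene does.

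Signalling genes were above the level in 77 of 479 cases (16.1%), with a median percentile of 49.8, against 27.0% and 65.1 for all named genes. Among ERBB receptors and ligands 2 of 14 were above, both of them receptors. ERBB2 stood at 91.7, 91.5, 91.3 and 91.3 and ERBB4 at 88.7, 88.5, 87.8 and 87.8, with other probes at means of 33.7 and 44.8. EGFR gave 37.8, 39.6, 31.97 and 33.3 on its only named probe, and ERBB3 averaged 61.5 ± 3.5. No ERBB ligand reached the level on any array. For the growth factors of the PDGF, KIT and VEGF group 1 of 19 genes was above, the ligand VEGFB at 93.1 ± 0.42 on 1 probe and 44.0 on the other, while the receptors PDGFRA and KIT averaged 54.6 ± 1.7 and 31.2 ± 2.2. The FGF list had 1 of 28, the ligand FGF3 at 85.6 ± 1.0, and FGFR1 gave 82.3, 82.3, 79.9 and 83.2, above on 3 of 4.

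In the insulin-like growth factor list 4 of 18 were above, and 3 of these were the RNA-binding proteins IGF2BP1, IGF2BP3 and IGF2BP2, at means of 94.98 ± 0.16, 94.5 ± 1.0 and 83.6 ± 0.83. The second probes of IGF2BP1 and IGF2BP2 averaged 53.6 and 35.2, and with the median over the probes of a gene 2 of the 18 were above. IGF2 itself averaged 47.9 ± 1.3 and the receptor IGF1R 76.3 ± 2.1. Other receptor tyrosine kinases and their ligands had 4 of 43 above, and all of these were ligands. MDK (midkine), a heparin-binding growth factor, stood at 97.9, 98.1, 97.8 and 97.7. HGF, the ligand of MET, stood at 97.7, 97.7, 97.7 and 97.4, with both of its probes above the level on every array. MET averaged 62.2 ± 2.0 and AXL 77.5 ± 0.91. PTN (pleiotrophin), the relative of midkine, gave 52.9, 62.3, 49.3 and 61.6, higher in replicate 2 of each dye.

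The WNT pathway had 9 of 53 genes above. Of these, 4 are receptors of the Frizzled family, FZD7 at 95.1 ± 0.51, FZD2 at 91.3 ± 0.63, FZD1 at 89.8 ± 0.87 and FZD8 at 89.2 ± 0.59. DKK1, a secreted inhibitor of the pathway, stood at 97.2, 97.2, 97.3 and 97.3, and SFRP1, another secreted inhibitor, averaged 87.0 ± 1.3, with its other probe at 63.1. LGR4, the receptor for R-spondins, averaged 94.1 ± 0.10 on 1 probe and 13.4 on the other. FZD1 and the ligand WNT6 each had a second probe below the level on every array. WNT6 averaged 84.2 ± 1.1 on its brighter probe, whereas WNT5A and WNT7A averaged 20.1 ± 0.68 and 6.06 ± 2.6. AXIN2 and LEF1, which are transcribed when the pathway is active in many tissues, averaged 51.6 ± 3.0 and 22.5 ± 2.4, below the foreign-family level on every array.

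In the TGF-beta and BMP pathway 10 of 62 were above. All 4 ID genes, which are targets of BMP signalling and inhibit helix-loop-helix factors, were among them, ID1 at 99.5, 99.6, 99.3 and 99.4, ID4 at 97.3 ± 0.27, ID3 at 96.0 ± 0.23 and ID2 at 95.4 ± 0.20. The ligands BMP7, TGFB2 and GDF15 averaged 87.6 ± 0.24, 84.1 ± 0.37 and 88.0 ± 1.1. The other probes of BMP7 averaged 58.3 and 30.8 and that of TGFB2 29.0, below the level on every array. The signal transducers SMAD1 and SMAD2 averaged 90.9 ± 0.37 and 89.7 ± 0.53, and 2 of the 4 SMAD2 probes were below the level on every array. BMP2, BMP4 and TGFB1 averaged 55.3 ± 2.7, 25.5 ± 3.8 and 71.8 ± 1.0. TGFBR2 gave 49.4, 40.9, 44.8 and 28.4, the widest spread of these genes at an SD of 9.0.

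Notch had 5 of 25 genes above. NOTCH2, a receptor, stood at 92.6, 93.4, 94.4 and 94.2, against 41.2 ± 1.4 for NOTCH1 and 29.2 ± 1.0 for NOTCH3. RBPJ, MAML1 and HEY1, the DNA-binding factor, its coactivator and a target, averaged 95.4 ± 0.34, 94.3 ± 0.57 and 93.4 ± 0.39, and the ligand JAG1 averaged 6.69 ± 2.0. The second MAML1 probe averaged 71.1. Hedgehog and Hippo genes had 9 of 24 above (37.5%), beside 27.0% of all named genes. SMO, GLI1 and GLI3, which transduce Hedgehog, averaged 92.3 ± 0.16, 88.6 ± 0.99 and 84.7 ± 1.5, and the receptor PTCH1 averaged 74.7 ± 1.4. NF2 averaged 95.3 ± 0.42 on its brightest probe, but its 3 other probes averaged 18.5, 25.9 and 42.5. YAP1 and WWTR1 (TAZ) averaged 74.5 ± 3.0 and 67.4 ± 3.2, and of their common targets CCN1 averaged 93.8 ± 0.34 and CCN2 63.7 ± 1.6.

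Further inside the cell, 7 of 35 genes of the RAS, ERK and PI3K list were above. AKT2 stood at 97.8, 97.9, 97.8 and 97.8, while its other probes were lower, at means of 81.7 and 23.02. SPRY2, SPRY1 and DUSP6, feedback inhibitors of ERK signalling, averaged 91.2 ± 0.17, 87.5 ± 0.49 and 89.0 ± 1.2. PIK3CA averaged 71.3 ± 2.0, below the level on every array. The cytokine, interferon and NFkB list had 7 of 46, led by SOCS2, an inhibitor of cytokine receptors, at 98.3 ± 0.24. NFKBIA, STAT6 and IL4R averaged 93.9 ± 0.35, 92.3 ± 0.32 and 90.1 ± 0.42, and STAT3, IL6ST and TNF averaged 56.7 ± 5.0, 33.6 ± 1.7 and 28.8 ± 0.94.

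Chemokines and their receptors had 1 of 45 genes above, CCR1 at 93.8, 94.2, 94.6 and 94.7, whose other probe averaged 59.5. CXCL8 (interleukin-8) gave levels of 32, 19, 12.5 and 12 and was flagged above background on 0 of 4, and CXCL12 and its receptor CXCR4 averaged 32.4 ± 2.9 and 77.2 ± 0.38. Nuclear receptors had 7 of 47 above. NR2F1 (COUP-TFI) stood at 98.5, 98.4, 98.4 and 98.5 and its relative NR2F2 gave 81.2, 81.1, 76.5 and 76.8, above on 2 of 4, the Cy3 arrays. RXRA, the partner of many receptors, averaged 90.1 ± 0.45 on 1 probe and 73.0 on the other, NR3C1 (the glucocorticoid receptor) 23.5 ± 2.0 and ESR2 19.2 ± 0.059.

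**Figure D5:**
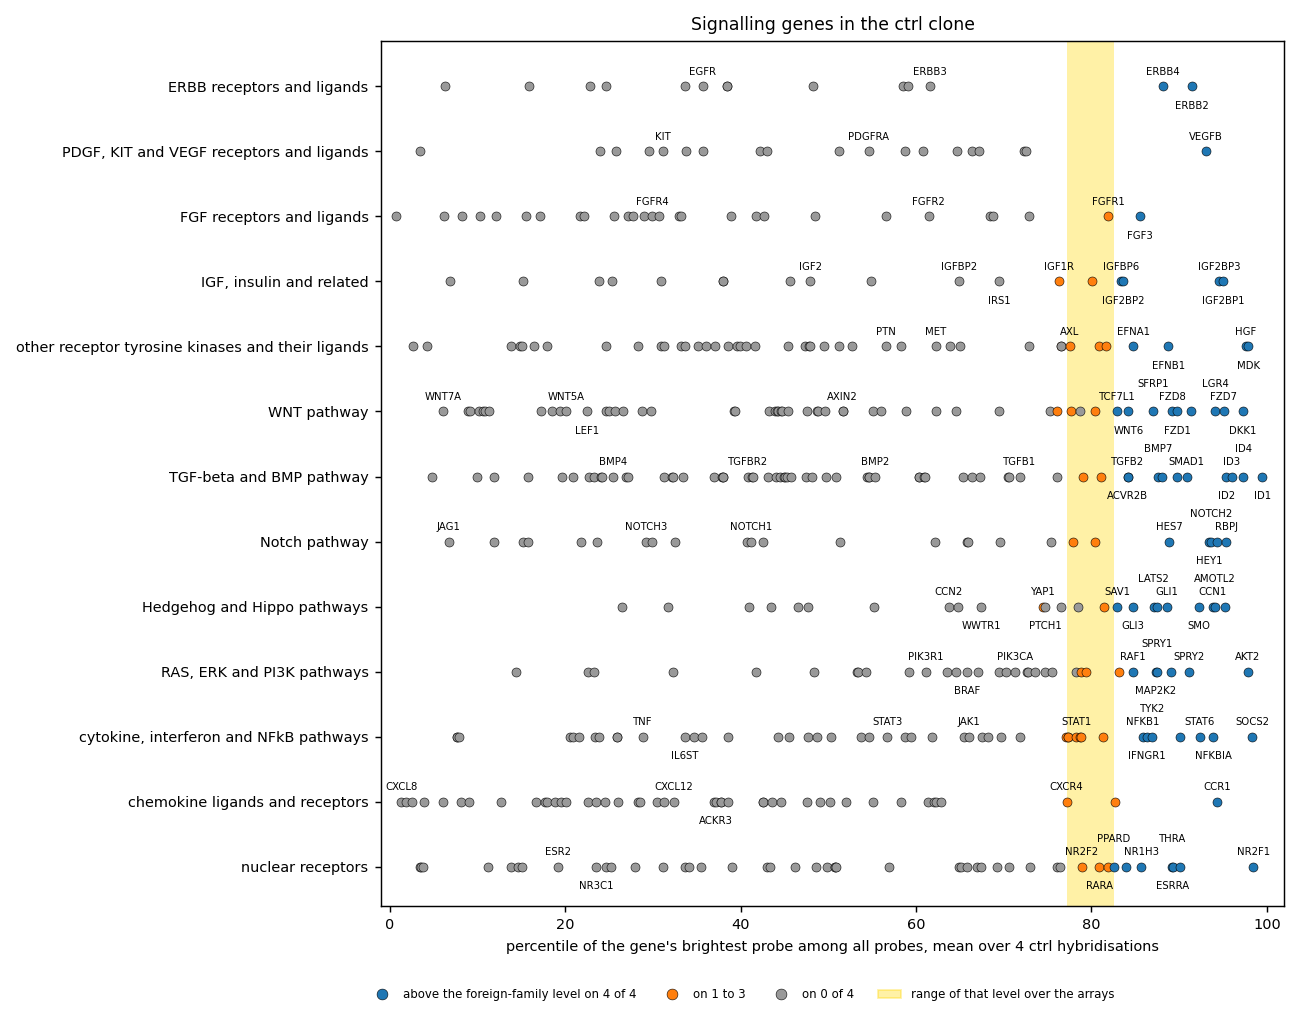
Mean percentile over the 4 ctrl hybridisations (x axis) of the brightest probe of measured genes, for the signalling lists described here (y axis), with colours as for the lineage markers. HGF and MDK, DKK1 and FZD7, and ID1 to ID4 lie right of the yellow band, and EGFR, AXIN2 and NOTCH1 left of it.

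Across all lists, 184 of 1138 measured genes were above the level on 4 of 4 hybridisations, 77 on some and 877 on none, and 1103 were flagged well above background on 4 of 4. Of the 1138 genes, 412 had more than 1 probe. For 62 of these 412 the probes disagreed, with at least 1 above the level on every array and at least 1 below it on every array. Since each of the 62 has a probe above the level on every array, they are to be read beside the 184 and not the 1138. The dyes were compared because the same clone was read in both. By limma on the log2 level, 0 of 40919 probes were called higher in Cy5 (0.00%) and 0 lower (0.00%), with adjusted p-values of 0.0570 and above. Before adjustment 10081 probes passed a threshold of 0.05. Leaving out any 1 of the 4 hybridisations ended this, with 225 to 987 probes then called higher in Cy5 and 146 to 370 higher in Cy3. The median absolute difference between dyes was 0.20 on the log2 scale over all probes and 0.18 over the 1138 listed genes, of which 6 differed by more than 1. With 2 hybridisations of each dye this does not show that the dyes gave the same level.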

How the data were processed

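Total RNA of the ctrl clone and of 2 knockdown clones was labelled with Cy3 or Cy5 and hybridised to 4 two-colour Agilent Whole Human Genome arrays on 1 slide. The authors scanned the arrays and deposited, for each of 43376 non-control spots, the median spot intensity, the median local background intensity, a processed intensity and quality flags of Agilent Feature Extraction, version 8.5.1.1 per the labels and 10.5.1.1 per the file headers. The log10 ratio tables that the authors deposited, and the software's log10 ratio and p-value per spot, were not used.

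Spots with an outlier mark in the ctrl channel, 82 to 153 per array, were left out, median background was subtracted, and spots of 1 probe were averaged. Values under 1 were set to 1 before log2. Of 41000 probes 25398 were named through RefSeq (GRCh38.p14, names only) and 15602 were not. Percentiles are ranks within an array. The genes named were drawn from those marked in 47 lists, the 3 brightest of each list and the 10 brightest of the array. Not all of these are named. RAB25, SNAI1, COL1A2, CMAS, further genes of counts given in full and the families of the closing part were added after their values were seen. Some listed genes, and 1 signalling list as a whole, are counted in the totals but not reported here. The members and lists were chosen with earlier results of these data known. Dyes were compared with limma 3.58.1 (R 4.3.3, lmFit and eBayes with trend, Benjamini-Hochberg over all probes, threshold 0.05). The same fit was run on simulated data of independent noise with seeded changes. That run checks the code and does not bear on the counts found here. Other steps used Python 3.11.15, pandas 2.3.3, numpy 2.4.6 and matplotlib 3.10.9. Precision is limited by there being 4 arrays of 1 clone. The alternatives tried were the software's processed signal, no background subtraction, outlier spots kept, the median over probes, each array left out, each dye alone, other reference levels, the software flag, a replicate block and other normalisations.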

Additional observations from a re-analysis of the deposited data

How the results depend on the processing

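The main counts were 28 lineage, 30 adhesion, 49 glycosylation and 77 signalling genes above the foreign-family level and 4653 over all named genes. Leaving out each hybridisation in turn gave 28 to 30, 30 to 34, 49 to 50, 77 to 80 and 4659 to 4791, and a mean foreign-family level at percentile 79.7 to 81.5 against 80.5. A gene then had to be above on fewer arrays, so these counts could hardly fall. Cy3 hybridisations alone gave 47 adhesion genes and 5490 of all named genes. Cy5 hybridisations alone gave 30 and 4684, so the higher level of the Cy5 arrays largely set the counts. The median over the probes of a gene, in place of the brightest probe, lowered every count. It gave 23 lineage, 24 adhesion, 33 glycosylation and 48 signalling genes and 3467 of all named genes. With the 90th percentile of the foreign families the level was 76.3 and 47 adhesion genes were above. With the 99th percentile the level was 87.9, and 17 lineage, 27 glycosylation, 38 signalling and 2763 of all named genes were above. The 95th percentile of the negative control spots left 245 lineage, 230 adhesion, 204 glycosylation, 477 signalling and 17070 of all named genes above, and the software flag 235, 224, 201, 469 and 16826, so the counts rest on the reference chosen. The processed signal, no background subtraction, outlier spots kept, Cy5 alone and olfactory receptors alone moved none of these counts by over 1.5 times. Of 2720 values of 272 named genes under alternatives, 192 moved by more than 1 SD, the most for NF2, by 61.1 percentile points with the median over its probes, and 172 of 690 counts of single lists moved beyond 1.5 times.

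The dye comparison gave 314 probes higher in Cy5 and 74 higher in Cy3 when the arrays were centred on the 75th percentile, and 225 to 987 and 146 to 370 when any 1 of the 4 hybridisations was left out, where a lone array is assumed to vary like the other dye's. Quantile normalisation, normexp and the filter on dim probes gave 0 and 0. With the knockdown clone on the array as a replicate block it gave 0 and 0, with 12518 probes at an unadjusted p under 0.05. The deviations of the arrays that share a number correlated at 0.18 within dyes, and the numbers were not taken as pairs. The cause of these differences was not tested.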

Other observations

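Further gene families were chosen after the data were seen. In the HOX clusters, whose genes give cells their position along the body axis, the HOXB cluster had 7 of 10 genes above the foreign-family level on all 4 hybridisations, beside 27.0% of all named genes. HOXB6 averaged a percentile of 98.8, HOXB9 98.5, HOXB2 96.7, HOXB3 96.6 and HOXB5 94.7, each on its brightest probe, while HOXB1 averaged 15.4 and HOXB7 54.6. HOXB2, HOXB3 and HOXB4 each had probes below the level on every array, as did HOXA3, so the count rests on the brightest probe of each gene. The HOXA cluster had 1 of 11, HOXA3 at 94.95, and HOXA9 and HOXA10 averaged 36.0 and 25.1. The HOXC and HOXD clusters had 1 of 9 each, HOXC9 at 97.5 and HOXD9 at 84.6.

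Of 19 members of the MAGE cancer-testis family 0 were above the level on any array, and the highest, MAGEC1, averaged 64.0. MHC class I, which presents peptides on most cells, had 4 of 6 genes above and MHC class II 0 of 12, beside 27.0% of all named genes. Housekeeping complexes lay at the other end, with all 73 cytosolic ribosomal proteins above the level (lowest mean percentile 98.2), 35 of 38 proteasome subunits and 8 of 9 minichromosome maintenance genes, which act in DNA replication. Fibrillar collagens had 2 of 8, COL3A1 and COL5A2.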
